A study of Rattus norvegicus with 10 samples.

Results

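The *Dusp* genes encode dual-specificity phosphatases that switch off MAP kinases, and 9 of them were followed here by name in sorted rat splenic macrophages: *Dusp1*, *Dusp2*, *Dusp3*, *Dusp4*, *Dusp5*, *Dusp6*, *Dusp7*, *Dusp10* and *Dusp16*. Of these 9 symbols, 8 were among the 9003 genes of the table, and *Dusp4* was not analysed here. RNA was sequenced from M2 macrophages of WKY /Ncrj rats in 4 groups. Control macrophages came from rats in physiological condition (n = 2), and GN macrophages came from rats with glomerulonephritis that received no cell therapy (n = 2). EV+ and EV- macrophages (n = 3 each) came from nephritic rats given human adipose-derived stem cells (ASCs) whose membranes had been labelled with the dye DiD, and were sorted as carrying or lacking that dye, which was used as the mark of transferred ASC vesicles. Nephritis was induced in the study with a mouse monoclonal antibody against the glomerular basement membrane, and the nephritic rats were female. The labels give no age, which the methods of the study state only as a range of weeks for the nephritis model, and the day on which these cells were collected is not given in the sources used here. Macrophages were enriched with an antibody to CD11b/c and then sorted, and the replicates are described as biological. EV+ and EV- differ from GN by the ASC treatment as well as by the sort on dye.

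A MAP kinase is active while both a threonine and a tyrosine of its activation loop carry a phosphate, and a dual-specificity phosphatase removes them. The inducible nuclear members Dusp1, Dusp2, Dusp4 and Dusp5 are classical early-response genes: their transcripts appear soon after a stimulus and their products end the kinase activity that the stimulus raised. Dusp6 and Dusp7 are cytoplasmic and act on ERK, Dusp10 and Dusp16 act mainly on JNK and p38, and Dusp3 is a small atypical member. In macrophages, Dusp1 is best known for limiting p38 and JNK activity and thereby cytokine output after Toll-like receptor stimulation.

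The libraries held 19270515 to 26617093 reads assigned to genes. Values are TMM-normalized CPM (read counts per gene scaled to a common library total), which corrects each library for its total and its composition, and 3 reads corresponded to 0.113 to 0.153 CPM. The macrophage label was checked against 16 marker genes, of which 15 were in the table. Group means were 6044 to 7567 CPM for *Csf1r*, 1033 to 1345 CPM for *Adgre1* and 971 to 1008 CPM for *Spi1*. The M2-associated receptors *Cd163* and *Mrc1* were close to the detection floor, with group means from 0.146 to 1.26 CPM and from 0.246 to 0.905 CPM. Summed NK and T cell markers (17 of 20 in the table) lay at 286 to 293 CPM in control, 361 to 372 in GN and 348 to 435 in EV+ libraries, and at 1220, 450 and 447 CPM in EV- replicates 1, 2 and 3. Leaving out EV- replicate 1, which stands apart in these markers, changed no call of a *Dusp* gene. In bulk RNA of this kind, fewer cells of a type and less RNA per cell cannot be told apart.

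The upstream sequences of the 3 members whose levels differed among the groups are shown first, because these genes are known as early-response genes; the elements searched for are ones found in promoters of many such genes. Promoters of all 8 members were matched by symbol in the RefSeq table of the GRCr8 assembly, a newer build than the rn6 used for counting. Each line gives the 250 bases before the transcription start, 5′ to 3′ on the strand of the gene, which is the plus strand for all 3. *Dusp1* lies at chr10:17184603-17184852, *Dusp2* at chr3:135009386-135009635 and *Dusp5* at chr1:262543524-262543773. Capitals mark matches to the cyclic AMP response element (CRE, TGACGTCA), to its half-site TGACG on either strand, or to the CArG box, the core of the serum response element.
Dusp1: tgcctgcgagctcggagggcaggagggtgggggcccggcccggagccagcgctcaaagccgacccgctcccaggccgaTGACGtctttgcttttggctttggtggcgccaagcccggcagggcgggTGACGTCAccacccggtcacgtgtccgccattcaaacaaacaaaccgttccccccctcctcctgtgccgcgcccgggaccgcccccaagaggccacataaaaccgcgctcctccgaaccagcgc
Dusp2: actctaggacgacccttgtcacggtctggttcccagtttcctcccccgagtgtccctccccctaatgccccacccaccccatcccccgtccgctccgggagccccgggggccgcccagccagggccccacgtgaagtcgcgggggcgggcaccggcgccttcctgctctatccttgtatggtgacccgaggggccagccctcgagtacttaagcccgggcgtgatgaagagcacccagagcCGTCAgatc
Dusp5: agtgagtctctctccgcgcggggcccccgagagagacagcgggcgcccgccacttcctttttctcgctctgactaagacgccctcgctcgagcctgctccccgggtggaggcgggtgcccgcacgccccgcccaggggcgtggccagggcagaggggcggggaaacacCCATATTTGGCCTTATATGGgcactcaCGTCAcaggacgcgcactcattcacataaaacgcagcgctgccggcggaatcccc

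*Dusp1* held a full CRE at -124 to -117, counted from -1 at the base before the start, and a separate half-site at -172 to -168. *Dusp5* held 2 adjacent CArG boxes at -82 to -73 and -72 to -63 and a half-site at -55 to -51. *Dusp2* held a half-site at -9 to -5. The full CRE occurred in 1.59% of all 33469 promoters of the table, the half-site in 18.2%, and a CArG box in 1.5%, while 0.0209% held 2 or more CArG boxes. A full CRE also counts as half-sites, since its letters contain TGACG on both strands. Among the other members, *Dusp3* and *Dusp16* each held 1 half-site, at -193 to -189 and at -70 to -66, and *Dusp6*, *Dusp7* and *Dusp10* held none of the 3 elements. The AP-1 site TGACTCA was found in none of the 8 windows and in 4.05% of all promoters. These matches describe letters only, and no binding was measured.

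**Figure D1:**
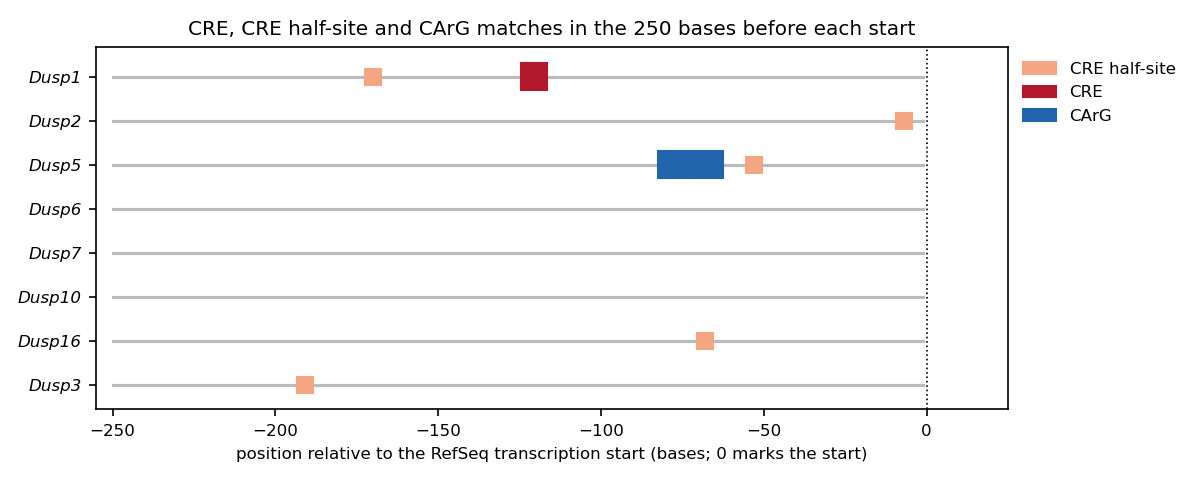
Positions of CRE, CRE half-site and CArG matches in the 250 bases before the RefSeq start of each of the 8 genes, with distance from the start in bases on the horizontal axis and both strands searched. The full CRE lies in *Dusp1* and the 2 adjacent CArG boxes lie in *Dusp5*.

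Among the 4 groups, *Dusp1*, *Dusp5* and *Dusp2* differed, and the other 5 members did not pass the test. The test was limma's moderated F test on log2(CPM + 1), with Benjamini-Hochberg adjustment over all 9003 genes and a false discovery rate (FDR) of 0.1, and it called 2.57% of all genes. The adjusted p was 0.000268 for *Dusp1*, which ranked 18 of 9003 genes by this test, 0.0154 for *Dusp5* and 0.0343 for *Dusp2*. It was 0.194 for *Dusp6*, 0.328 for *Dusp3*, 0.876 for *Dusp10*, 0.888 for *Dusp16* and 0.963 for *Dusp7*. The 3 called genes are the inducible nuclear phosphatases among the 8 members measured. Without control replicate 1, *Dusp1* alone remained, and the same held without the intensity trend of limma. *Dusp6* passed as well, for 4 members in all, with DESeq2, with quality weights, with a block for the EV+ and EV- replicate numbers alone, and without EV+ replicate 2.

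*Dusp1*, the nuclear phosphatase of p38 and JNK, was lower in both groups from ASC-treated rats than in control, and in EV- also lower than in GN. It had 7772 and 6557 CPM in the control libraries, 5501 and 4592 in GN, 2989, 3129 and 3683 in EV+, and 3599, 2798 and 3392 in EV-. The control libraries lay above both GN libraries, which in turn lay above all 6 EV+ and EV- libraries, while EV+ and EV- overlapped. The control mean was 7165 ± 859 CPM (SD, n = 2) and the GN mean 5047 ± 643 CPM (n = 2). The EV+ and EV- means were 3267 ± 367 and 3263 ± 416 CPM (n = 3 each). Thus *Dusp1* stood at 45.6% of the control mean in EV+ and at 45.5% in EV-. All differences below are on the log2(CPM + 1) scale.

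*Dusp1* fell from control to EV+ by 1.13 (SE 0.123, limma adjusted p = 1.3e-04) and from control to EV- by 1.14 (SE 0.123, adjusted p = 1.47e-04). Both calls held when any library was left out and under each of the other settings tried. From GN to EV- it fell by 0.63 (95% interval -0.90 to -0.37, adjusted p = 0.0633), a 1.55-fold difference. The difference from GN to EV+ was of the same size, -0.63 (95% interval -0.89 to -0.36), but with an adjusted p of 0.129 it missed the threshold, and from control to GN it was -0.51 (SE 0.135, adjusted p = 0.114). A block for the replicate number in all 4 groups let both of the latter pass, with adjusted p of 0.0210 and 0.0214. Deviations of same-numbered EV+ and EV- libraries correlated only weakly (r = 0.203, 0.295 and 0.122 over genes), and libraries of different number were not compared. A block for the EV+ and EV- numbers alone, chosen after seeing the data, gave 0.0034 and 0.0126. That block understates the error of comparisons with GN or control. The call between GN and EV- was lost without GN replicate 1 (adjusted p = 0.726), GN replicate 2 (0.158), EV- replicate 2 (0.188) or EV- replicate 3 (0.102). The difference between GN and EV+ passed without EV- replicate 2 (0.0496), and that between control and GN passed without EV+ replicate 2 (0.0953) or EV- replicate 2 (0.0654).

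*Dusp5*, a nuclear phosphatase specific for ERK, was lower in all 3 nephritic groups than in control. Control libraries had 240 and 209 CPM, GN libraries 172 and 148, EV+ libraries 123, 150 and 133, and EV- libraries 136, 167 and 146. The control libraries lay above all the others, and the GN, EV+ and EV- ranges overlapped. Group means were 225 ± 21.4 (SD, n = 2), 160 ± 16.6 (n = 2), 135 ± 13.8 (n = 3) and 149 ± 15.9 CPM (n = 3) in the same order. *Dusp5* fell from control to GN by 0.49 (SE 0.122, limma adjusted p = 0.0887), from control to EV+ by 0.73 (SE 0.112, adjusted p = 0.00273) and from control to EV- by 0.59 (SE 0.112, adjusted p = 0.0162). No step from GN passed: the difference was -0.24 to EV+ (adjusted p = 0.699) and -0.10 to EV- (adjusted p = 0.899, 95% interval -0.34 to 0.14).

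Of these 3 calls for *Dusp5*, that between control and EV+ held without any library. The call between control and GN was lost without control replicate 1 (adjusted p = 0.487), control replicate 2 (0.139), GN replicate 1 (0.165), GN replicate 2 (0.611), EV+ replicate 3 (0.143) or EV- replicate 3 (0.118), and under the replicate block over all 4 groups it stood at 0.101. Under the block for EV+ and EV- alone, which understates the error here, its adjusted p was 0.0057. The call between control and EV- was lost without control replicate 1 (adjusted p = 0.182).

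*Dusp2*, a nuclear phosphatase found mainly in haematopoietic cells, was lowest in EV- macrophages. It had 148 and 93.1 CPM in control, 113 and 78.4 in GN, 49.3, 74.2 and 87.3 in EV+, and 49.8, 38.5 and 54.3 in EV-. All EV- libraries lay below all control and GN libraries, whereas the EV+ libraries overlapped both GN and EV-. Its means were 120 ± 38.7 CPM for control and 95.7 ± 24.5 CPM for GN (SD, n = 2 each), and 70.2 ± 19.3 CPM for EV+ and 47.5 ± 8.14 CPM for EV- (n = 3 each). Its spread within groups was the widest of the 8 members, with an SD of 0.373 on the log2 scale, compared with 0.176 for *Dusp1* and 0.146 for *Dusp5*.

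*Dusp2* fell from control to EV- by 1.30 (SE 0.238, limma adjusted p = 0.0126), a 2.46-fold difference, and this call was lost without control replicate 1 (adjusted p = 0.172). The differences from GN to EV- (-0.99, adjusted p = 0.171) and from control to EV+ (-0.77, adjusted p = 0.129) missed the threshold. Under the replicate block they passed, with adjusted p of 0.0564 and 0.0455. With the likelihood-ratio test of edgeR they also passed, at 0.0094 and 0.0441. With only the groups compared, limma gave 0.0613 and 0.240, and DESeq2 gave 0.141 and 0.189. The block for EV+ and EV- alone, which understates the error here, gave 0.0281 and 0.0339. The difference from GN to EV- also passed without EV+ replicate 1 (0.0619). From control to GN the difference was -0.31 (adjusted p = 0.757), and from GN to EV+ it was -0.46 (adjusted p = 0.770). *Dusp2* was the member with the widest gap between EV+ and EV-, 0.53 higher in EV+ (95% interval 0.07 to 0.99), with an unadjusted p of 0.0263 by limma and an adjusted p of 0.9997.

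**Figure D2:**
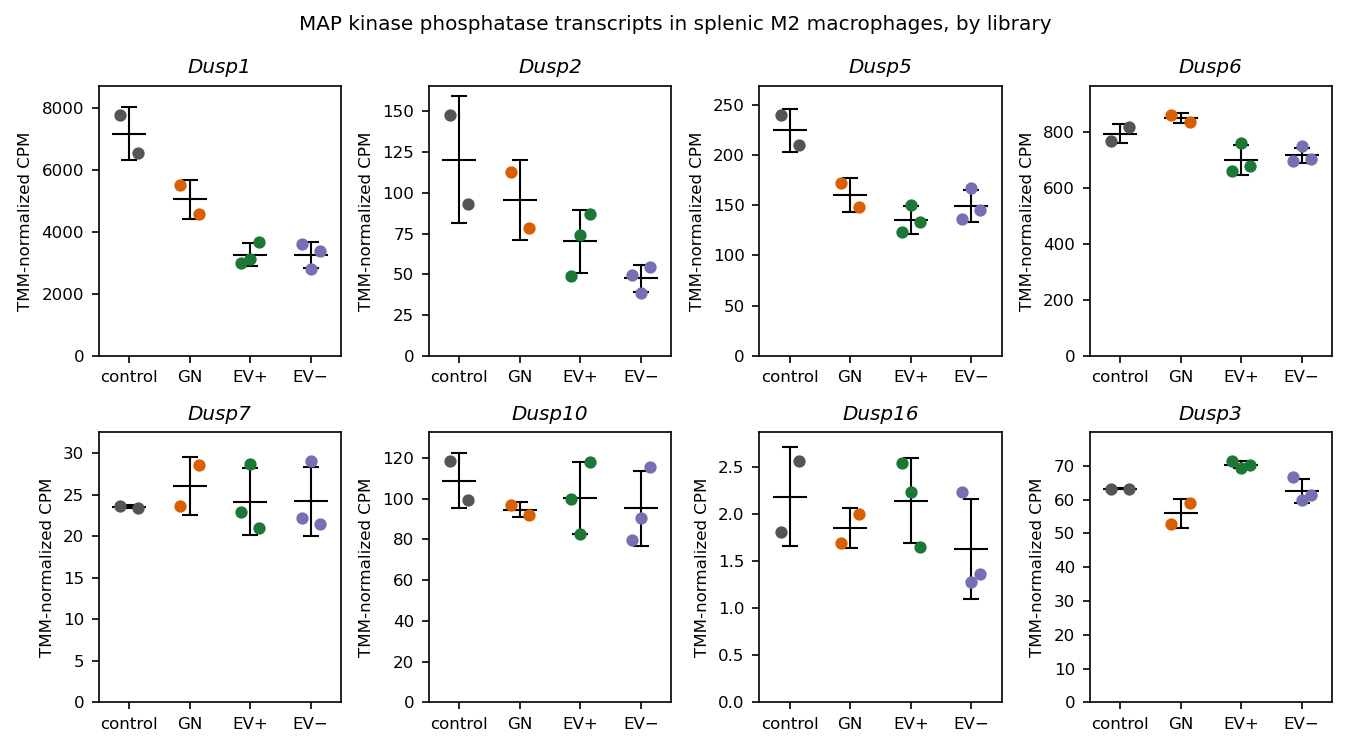
TMM-normalized CPM of the 8 genes in each library (points), with the group mean (long bar) and SD (whiskers), for macrophages of the control and GN groups (n = 2 each) and the EV+ and EV- groups (n = 3 each); each panel has its own axis starting at 0. *Dusp1* steps down from control to GN to both EV groups, *Dusp5* drops after control, and the EV- libraries of *Dusp2* lie below control and GN.

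The cytoplasmic ERK phosphatase genes did not pass the test in any comparison. *Dusp6*, itself a target and feedback inhibitor of ERK signalling, had 770 and 820 CPM in control, 862 and 837 in GN, 663, 762 and 678 in EV+, and 697, 749 and 706 in EV-. Both GN libraries lay above all the other libraries, and the EV+ and EV- libraries lay below both control libraries. The largest *Dusp6* difference was that between EV+ and GN, -0.28 (95% interval -0.44 to -0.12, limma adjusted p = 0.411), a 1.21-fold difference. EV- lay 0.24 below GN (-0.24, adjusted p = 0.347), and the difference of EV+ from control was -0.18 (adjusted p = 0.273, or 0.0929 without EV+ replicate 2). With the block for EV+ and EV- alone, which understates the error here, these 3 differences had adjusted p of 0.0232, 0.0426 and 0.0602. *Dusp7*, the close relative of *Dusp6*, ranged from 21.0 to 29.0 CPM over all 10 libraries, and the lowest and the highest value both lay in the ASC-treated groups. Its means were 23.6, 26.1, 24.2 and 24.2 CPM in control, GN, EV+ and EV-, and every pair of groups overlapped.

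The JNK and p38 phosphatase genes *Dusp10* and *Dusp16* did not separate the groups. *Dusp10* had 118 and 99.3 CPM in control, 97.1 and 92.1 in GN, 100, 82.6 and 118 in EV+, and 79.5, 90.6 and 116 in EV-. The GN libraries lay just below the control libraries, and the EV+ and EV- libraries overlapped both groups. Its intervals against control ran from -0.56 to 0.17 in GN, from -0.46 to 0.21 in EV+ and from -0.54 to 0.13 in EV-. *Dusp16* had 25 to 65 reads a library, at 1.27 to 2.56 CPM, and all pairs of groups overlapped. Its 95% interval between EV+ and EV- ran from -0.23 to 0.76, which leaves room for differences within that range. On the log2(CPM + 1) scale, the added 1 compresses values as low as these.

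*Dusp3*, a small phosphatase that acts on ERK and JNK, was the one member with its highest values in EV+. It had 63.0 and 63.2 CPM in control, 52.8 and 59.0 in GN, 71.3, 69.3 and 70.2 in EV+, and 66.7, 59.7 and 61.2 in EV-. The EV+ libraries lay above every other library, and both GN libraries lay below every other library. Its values were the tightest within groups of all members, with an SD of 0.0664 on the log2 scale. The difference between EV+ and GN was 0.33 (95% interval 0.13 to 0.53, unadjusted p = 0.0035, limma adjusted p = 0.437), a 1.25-fold difference that did not pass.

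Read by comparison, the members called between control and the other groups were all lower than in control. Between GN and control, 1 of the 8 members was called (*Dusp5*, lower), where 1.75% of all genes were called and 0.822% were called lower. The groups did not overlap for 5 members, 4 lower in GN (*Dusp1*, *Dusp3*, *Dusp5* and *Dusp10*) and 1 higher (*Dusp6*). Of all genes, 22.0% were lower and 21.9% were higher in this way, and 5 of 8 members stands beside that. Between EV+ and control, 2 members were called lower (*Dusp1* and *Dusp5*), where 3.63% of all genes were called and 1.81% lower. Between EV- and control, 3 were called lower (*Dusp1*, *Dusp2* and *Dusp5*), where 2.84% were called and 1.56% lower. In each of these 2 comparisons 4 members were lower without overlap (*Dusp1*, *Dusp2*, *Dusp5* and *Dusp6*), against 15.6% and 14.1% of all genes that were lower in this way. *Dusp3* was higher in EV+ than in control without overlap, as were 14.9% of all genes. The median difference of the 8 members was -0.18 between GN and control, -0.16 between EV+ and control and -0.24 between EV- and control, against medians between 0.00 and 0.01 over all genes. The 3 comparisons share their control libraries.

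Between EV+ and GN, no member passed, where 0.122% of all genes were called. Of the 8 members, 4 had an unadjusted limma p under 0.05 (*Dusp1*, *Dusp3*, *Dusp5* and *Dusp6*), as did 7.13% of all genes, and the quasi-likelihood test of edgeR on whole reads also called none. The likelihood-ratio test and the replicate block each called 1 (*Dusp1*), where they called 43 and 30 of all genes in place of 11. DESeq2, quality weights and the block for EV+ and EV- alone each called 2 (*Dusp1* and *Dusp6*), where they called 41, 75 and 113 of all genes. Between EV- and GN, 1 member was called (*Dusp1*, lower), where 0.378% were called and 0.322% lower, and the block raised this count to 2 with *Dusp2*. Between EV+ and GN, 2 members were lower without overlap (*Dusp1* and *Dusp6*) and 1 higher (*Dusp3*), as were 11.8% and 11.2% of all genes. Between EV- and GN, 3 were lower in this way (*Dusp1*, *Dusp2* and *Dusp6*) and 1 higher (*Dusp3*), as were 12.8% and 12.6% of all genes. These comparisons share the GN libraries.

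Whether macrophages that had taken up dye differed from those of treated rats that had not was addressed by the comparison of EV+ with EV-. No *Dusp* gene was called, under the main test or under any other setting, and 0.0222% of all genes were called. *Dusp2* alone had an unadjusted p under 0.05 by limma, as did 4.57% of all genes. *Dusp3* alone had groups that did not overlap, higher in EV+, as did 4.25% of all genes. For *Dusp1* the difference was 0.00 (95% interval -0.23 to 0.24) and for *Dusp5* it was -0.14 (95% interval -0.36 to 0.07). These intervals leave room for differences of that width, but not for one as large as the gap of either gene to control.

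**Figure D3:**
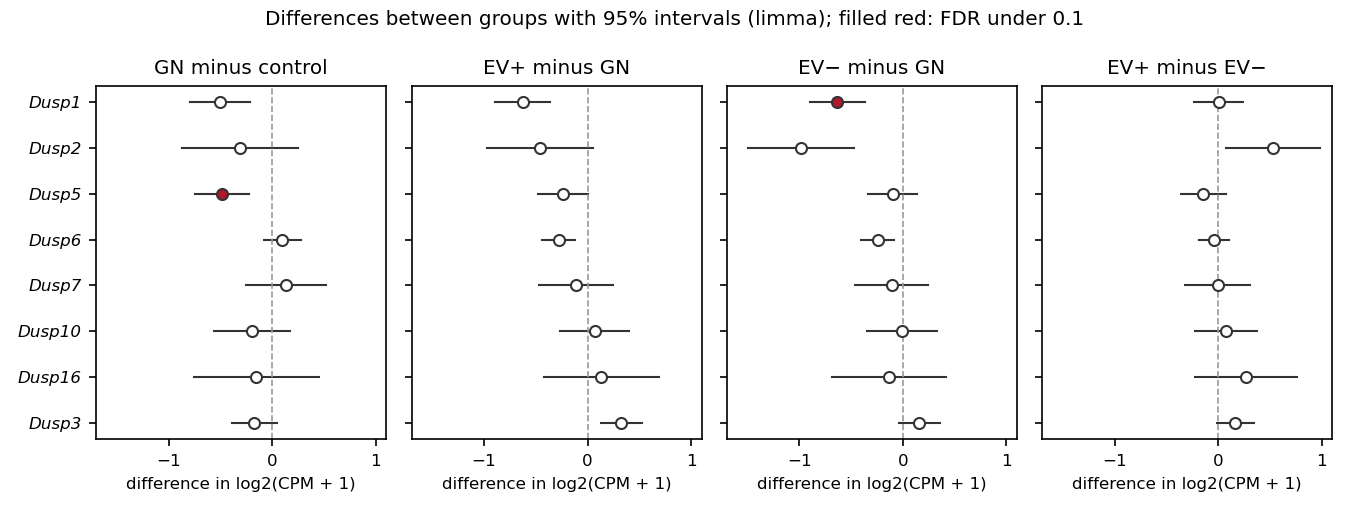
Differences in log2(CPM + 1) between groups for each of the 8 genes, with 95% intervals from limma; filled points passed an FDR of 0.1 over all 9003 genes. Only *Dusp5* between GN and control and *Dusp1* between EV- and GN are filled, and in the panel of EV+ minus EV- the interval of *Dusp2* alone lies clear of 0.

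The genes whose levels followed each called member most closely over the 10 libraries were found by a fixed measure. Likeness was the root mean square difference between log2(CPM + 1) profiles centred on their means, among genes of at least 5 CPM on average, and it describes the same libraries without a test. For *Dusp1*, whose own profile had a root mean square of 0.481, the nearest were *Pim1* (0.127), *Rgs2* (0.143), *Junb* (0.155), *Jund* (0.161) and *Ppp1r15a* (0.163). *Pim1* encodes a survival kinase, *Rgs2* a regulator of G protein signalling, *Junb* and *Jund* AP-1 subunits, and *Ppp1r15a* a stress-induced phosphatase subunit. For *Dusp2* (own value 0.566) they were *Cxcl10* (0.202), *Cd83* (0.217), *Plk2* (0.237), *Ier3* (0.291) and *Nxpe3* (0.295). The profile of *Dusp1* stood 0.279 from that of *Dusp2*, nearer than *Ier3*. For *Dusp5* (own value 0.283) they were *Ier5* (0.0640), *Fam43a* (0.0911), *Pparg* (0.0959), *Ccrl2* (0.114) and *Stambpl1* (0.115). *Cxcl10* is a chemokine, *Cd83* a marker of activated antigen-presenting cells, and *Pparg* a nuclear receptor of lipid metabolism in macrophages.

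The kinases that these phosphatases act on, and the kinases above and below them, gave 1 call. None of the 7 MAP kinase genes in the table (of 14 listed) was called in any comparison. *Mapk3*, which encodes an ERK kinase, had group means of 124 to 133 CPM. *Mapk14*, the gene of p38 alpha, had means of 183 to 200 CPM, and *Mapk9*, a JNK gene, of 55.3 to 58.1 CPM. None of the 6 MAP2 kinase genes (of 7 listed) and none of the 10 genes of MAPK-activated kinases (of 11) was called. Of the 15 MAP3 kinase genes (of 21), 1 was called in 1 comparison: *Map3k2*, an upstream kinase of ERK5 and JNK, had 20.8 ± 1.33 CPM (SD, n = 2) in control and fell by 0.55 to 13.9 ± 1.26 CPM (n = 3) in EV+ (limma adjusted p = 0.0713).

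No gene of the other brakes on the pathway was called. The 10 further dual-specificity phosphatase genes in the table (of 21 listed) passed in no comparison. Nor did the 6 other phosphatases of MAP kinases (of 8), such as *Ppp2ca* and *Ppm1a*. The 9 inhibitors of Ras and ERK signalling (of 16), such as *Errfi1* and *Rasa1*, also passed in none. The median difference of these 9 inhibitors was 0.22 between EV+ and control and 0.19 between EV- and control. In the same comparisons it was -0.04 and -0.05 for the MAP kinases, 0.13 and 0.09 for the MAP2 kinases, -0.02 and 0.02 for the MAP3 kinases, 0.04 and -0.03 for the MAPK-activated kinases, 0.02 and 0.12 for the other MAP kinase phosphatases and -0.02 and 0.03 for the further dual-specificity phosphatases. *Rasal3*, a GTPase-activating protein for Ras, had 820 CPM in control, 825 in GN, 963 in EV+ and 950 in EV- on average, with adjusted p of 0.212 and 0.280 for EV+ and EV- against control.

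Early-response genes, mostly of transcription factors, were counted in the same comparisons. Of 21 such genes listed, 20 were in the table, and 5 fell between control and GN (*Atf3*, *Ier2*, *Ier5*, *Jund* and *Klf2*), 14 between control and EV+ and 12 between control and EV-, with none higher. Of all genes, 0.822%, 1.81% and 1.56% were called lower in these comparisons. Between GN and EV+, *Ier2* and *Junb* fell, where 0.122% of all genes were called in either direction and 5 of 9003 were called lower. Between GN and EV-, *Egr1* and *Junb* fell, where 0.322% of all genes were called lower. None of the list was called between EV+ and EV-. The list was drawn up with earlier results of these data known, so its counts are not independent evidence of a direction. *Junb* had means of 2326 ± 245, 1820 ± 108, 1154 ± 120 and 1193 ± 75.8 CPM in control, GN, EV+ and EV-. *Fos*, the partner of the Jun proteins in AP-1, had 3501 ± 462, 2037 ± 161, 1119 ± 153 and 1234 ± 558 CPM. The list summed to 15994 and 13462 CPM in the control libraries, 10304 to 10909 in GN, 7187 to 8020 in EV+ and 7718 to 8405 in EV-. Control replicate 1, the library with the highest *Dusp1*, *Dusp2* and *Dusp5*, was also the highest in this sum.

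**Figure D4:**
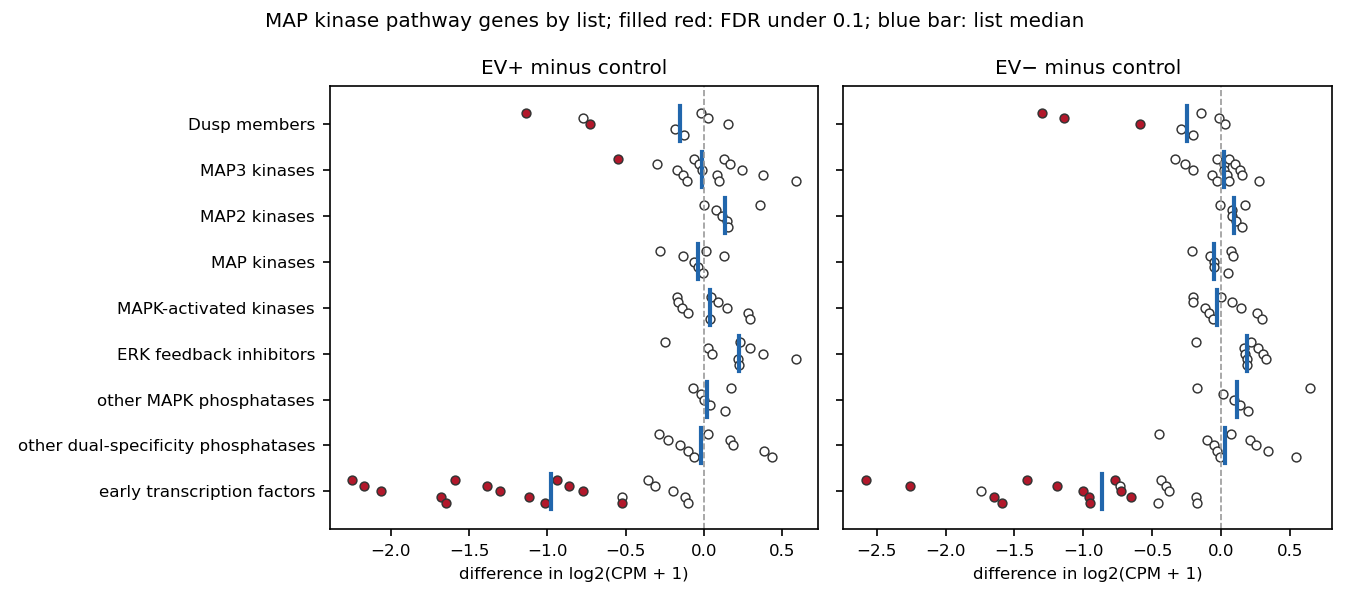
Differences in log2(CPM + 1) of each gene in the MAP kinase lists for EV+ minus control (left) and EV- minus control (right); each circle is 1 gene, filled circles passed an FDR of 0.1, and the blue bar is the list median. Filled circles lie to the left of 0, in the *Dusp* members, the early transcription factors and, for EV+, *Map3k2*.

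Heat shock genes, which respond to stress of cells during handling as well as in the animal, were followed beside them. Of 12 listed, 11 were in the table and 3 (*Dnajb1*, *Hsp90aa1* and *Hspa1a*) fell between control and EV+, where 1.81% of all genes were called lower, with no other call in any comparison. Their sum was 2489 and 2453 CPM in control, 1856 and 2240 in GN, 2047, 1629 and 1651 in EV+ and 2485, 1684 and 1699 in EV-. *Hspa1a* had means of 592 ± 37.6, 346 ± 26.6, 152 ± 115 and 250 ± 237 CPM in the 4 groups. *Hspa8*, the constitutive member, had 1120 ± 26.8, 1073 ± 235, 1055 ± 49.9 and 1083 ± 93.1 CPM. In EV- replicate 1 the heat shock sum was as high as in control, while *Dusp1*, *Dusp2* and *Dusp5* stood at 3599, 49.8 and 136 CPM there, the highest, the middle and the lowest of the EV- values. The part of handling in the *Dusp* differences was not tested.

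Marker genes of other cells gave the following sums beside these results. The macrophage markers summed to 29121 to 29628 CPM in control and to 32703 to 34845 CPM in the other libraries, with *Cd163* and *Mrc1* at 0 in at least 1 library. B cell markers (6 of 10 in the table) summed to 320 to 464 CPM over all libraries. Neutrophil markers (7 of 10) summed to 550 to 556 CPM in control, 611 to 690 in GN, 701 to 720 in EV+ and 656 to 744 in EV-. Dendritic cell markers (6 of 8) summed to 28.4 to 41.7 CPM, and the 1 erythroid marker of 8 in the table, *Hbb*, to 1.002 to 5.25 CPM. Against control, *Itgam* was called higher and *Fcgr3a* lower in GN, EV+ and EV-, *Cd14* higher in GN and EV+, and *Adgre1* and *Csf1r* higher in EV+. *Cd8a* and *Csf3r* were called higher in EV+ and EV-, *Cd8b* in EV+, *Prf1* in EV- and *Hbb* in GN and EV-, and *Cd79b* was called lower in GN. No marker was called in EV+ or EV- against GN, or in EV+ against EV-. The median difference of the 17 NK and T cell markers was still 1.73 in EV- against GN and 1.55 in EV- against control. It was -1.59 in EV+ against EV-, 0.04 in EV+ against GN and 0.02 in EV+ against control. Medians over all genes lay between -0.01 and 0.01 in these comparisons. The part of other cells in the *Dusp* differences was not tested. When EV- replicate 1, where the NK and T cell markers were highest, was left out, the difference between EV- and control was -1.21 for *Dusp1* (adjusted p = 0.000510), -1.34 for *Dusp2* (0.0396) and -0.52 for *Dusp5* (0.0674) by limma.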

How the data were processed

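Libraries of splenic M2 macrophages were made with a SMART-Seq v4 low-input kit and sequenced paired-end. The authors aligned reads to rn6 with STAR 2.5.3, counted them per RefSeq gene with HTSeq 0.6.0, removed genes whose highest value was under 1 CPM and deposited TMM-normalized values (signal on a CPM scale) from edgeR. These steps remove low genes and set libraries to a like composition, so that values are relative to the bulk of the transcripts. Whole reads were recovered from the deposited values for 100% of entries (tolerance 0.01), giving 19270515 to 26617093 reads a library. The kit marks no strand, so overlapping antisense transcripts cannot be told apart.

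log2(value + 1) was tested with limma 3.58.1 (R 4.3.3, intensity trend, 1 fit of 4 groups, 6 residual degrees of freedom), with Benjamini-Hochberg adjustment over 9003 genes and calls at an FDR of 0.1. Alternatives were a pseudocount of 0.1, no trend, edgeR 4.0.16 (quasi-likelihood and likelihood-ratio, TMM or RLE) and DESeq2 1.42.0 on recovered reads, at least 1 CPM in 2 libraries, an FDR of 0.05, quality weights, only the groups compared, a replicate block and each library left out. Deviations of same-numbered EV+ and EV- libraries correlated weakly (r = 0.203, 0.295 and 0.122 over genes), so the block is given where it changes a call. For control and GN r was 0.0878, and libraries of different number were not compared. The pairing comes from the data, as the labels do not say what the numbers share. A block for EV+ and EV- alone understates the error of comparisons with GN or control. Pathway lists are given as counts, naming genes that passed. For called members the 5 genes of most similar profile are named. The members and lists were chosen with earlier results of these data known.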

Additional observations from a re-analysis of the deposited data

How the results depend on the processing

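Values were recomputed for all comparisons of *Dusp1*, *Dusp2* and *Dusp5*, and for other members only where the unadjusted limma p was under 0.05. Of these 484 values under another setting or without a library, 430 kept their direction and their side of the threshold. Of the rest, 29 passed where they had not, 21 no longer passed and 4 changed sign. The falls of *Dusp1* and *Dusp5* from control to EV+ and of *Dusp1* from control to EV- passed in every fit. The members called among the 4 groups went from 3 to 1 without the intensity trend and to 4, adding *Dusp6*, with DESeq2, quality weights and the block for EV+ and EV- alone, and lay between 1 and 4 when a library was left out. Between GN and control the count of 1 became 0 without the trend, with edgeR's quasi-likelihood test under either scaling and at an FDR of 0.05, and 2 with the likelihood-ratio test, DESeq2, quality weights, only the groups compared and the block for EV+ and EV- alone (added after seeing the data). It lay between 0 and 2 without a library. Between EV+ and GN the count of 0 became 1 with the likelihood-ratio test and with the replicate block, and 2 with DESeq2, quality weights and the block for EV+ and EV- alone, and lay between 0 and 1 without a library. Between EV- and GN the count of 1 became 0 without the trend and at an FDR of 0.05, 2 with the likelihood-ratio test, the replicate block and only the groups compared, and 3 with the block for EV+ and EV- alone, and lay between 0 and 2 without a library. Between EV+ and control the count of 2 became 3 with the likelihood-ratio test, the replicate block and quality weights, and 4 with the block for EV+ and EV- alone. It lay between 2 and 3 when an EV+ or EV- library was left out. Between EV- and control the count of 3 became 1 without the trend and lay between 1 and 3 without a library. The sign changed for *Dusp1* between EV+ and EV- without EV+ replicate 3 (-0.0854) and without EV- replicate 2 (-0.103), for *Dusp2* between GN and control without control replicate 1 (0.0165), and for *Dusp5* between EV- and GN without GN replicate 1 (0.0061). Over all left-out libraries these log2 differences ran from -0.103 to 0.0788, from -0.645 to 0.0165 and from -0.204 to 0.0061. The cause of these changes was not tested. Where a group was left with 1 library, that library was assumed to vary like those of the other groups. The block for EV+ and EV- alone understates the error of comparisons with GN or control, so its counts there can be too high.

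Over all genes, the same settings, libraries left out aside, moved the calls from 231 among the 4 groups to between 93 and 735, from 158 between GN and control to between 60 and 392, from 11 between EV+ and GN to between 0 and 113, and from 34 between EV- and GN to between 6 and 172. They moved from 327 between EV+ and control to between 155 and 856, from 256 between EV- and control to between 94 and 689, and from 2 between EV+ and EV- to between 0 and 57. *Dusp16*, at 25 to 65 reads a library, had a within-group SD of 0.230 on the log2(CPM + 1) scale, and *Dusp10*, at 1637 to 3070 reads, 0.227. These are not alike in meaning, since the added 1 compresses values as low as the 1.27 to 2.56 CPM of *Dusp16*. As a share of the mean, the SD of *Dusp16* was 24.2%, 11.5%, 21.1% and 32.7% in control, GN, EV+ and EV-. That of *Dusp10* was 12.3%, 3.78%, 17.6% and 19.4%.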
